A study of Mus musculus with 16 samples.

Results

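The genes described here make the machinery that reads messenger RNA into protein. They are the initiation, elongation and release factors, the tRNA synthetases and the kinases and binding proteins that restrain these factors. They were found in the authors' deposited table of genes that differed between beta-glucan and control macrophages. The choice took protein-coding rows whose symbols begin as those of translation factors or synthetases do, and left out genes that the authors' table places in the preribosome. Such symbols belonged to 36 of the 3071 listed genes. Eif6, a factor that also acts in ribosome assembly, was left out, and 35 members remained. The table holds only genes with an authors' adjusted p under 0.05 among 17130 tested, so every member had passed that threshold in these same libraries. The differences between the groups are therefore given as a description. Members ranged in the authors' adjusted p from 8.93e-07 for Eif1ax to 0.0449 for Tars, the nearest to the threshold with Eif4enif1, also at 0.0449. Family genes that did not pass the threshold are not analysed here.

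Bone marrow cells of aged C57BL/6 mice had been cultured for 7 days with M-CSF at 10 ng/mL, which drives their growth into macrophages. The beta-glucan group, 8 libraries numbered 5, 6, 7, 8, 9, 10, 12 and 13, then had 10 µg/mL of beta-glucan from the yeast Candida albicans for 24 hours. The control group, 8 libraries numbered 2, 3, 5, 7, 9, 10, 12 and 13, had PBS. Both groups rested for 7 days before RNA was taken, and the study asked how this training left the transcriptome. The labels give neither an age in months nor whether libraries came from separate mice, so any spread between libraries may be technical. Each library had from 4382665 to 5600727 reads on the listed genes. In bulk RNA, fewer cells of a type and less RNA per cell cannot be told apart.

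Translation starts when eIF2 carries the initiator tRNA to the small ribosomal subunit and the cap-binding factors eIF4E, eIF4G and eIF4A bring in the messenger. After each round eIF2 is recharged with GTP by eIF2B, and kinases that phosphorylate eIF2 alpha block this step under stress. Elongation factors then deliver charged tRNAs, which the synthetases supply by joining each amino acid to its tRNA, and release factors end the chain. In macrophages, as in other cells, mTORC1 and the eIF2 kinases are known to tune this machinery.

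All but 1 of the factor and synthetase genes among the members were higher with beta-glucan, and all 5 regulators were lower. In the authors' deposited values 29 members were higher and 6 lower. Of all 3071 listed genes 35.1% were higher, and of the listed protein-coding genes 40.5%, so most listed genes were lower. Of all genes tested 6.3% were listed higher and 11.6% lower. The 6 lower members were the eIF2 kinases Eif2ak3 and Eif2ak4, the eEF2 kinase Eef2k, the eIF4E-binding genes Eif4ebp2 and Eif4enif1, and the helicase gene Eif4a2. The differences were small. No member reached a log2 fold change of 1 in size, the higher members lay between 0.17 and 0.64 (median 0.36) and the lower members between -0.52 and -0.28 (median -0.40). All log2 fold changes here are beta-glucan over control from an edgeR fit with the deposited size factors, and the fitted positive and negative listed genes had medians of 0.42 and -0.63.

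**Figure D1:**
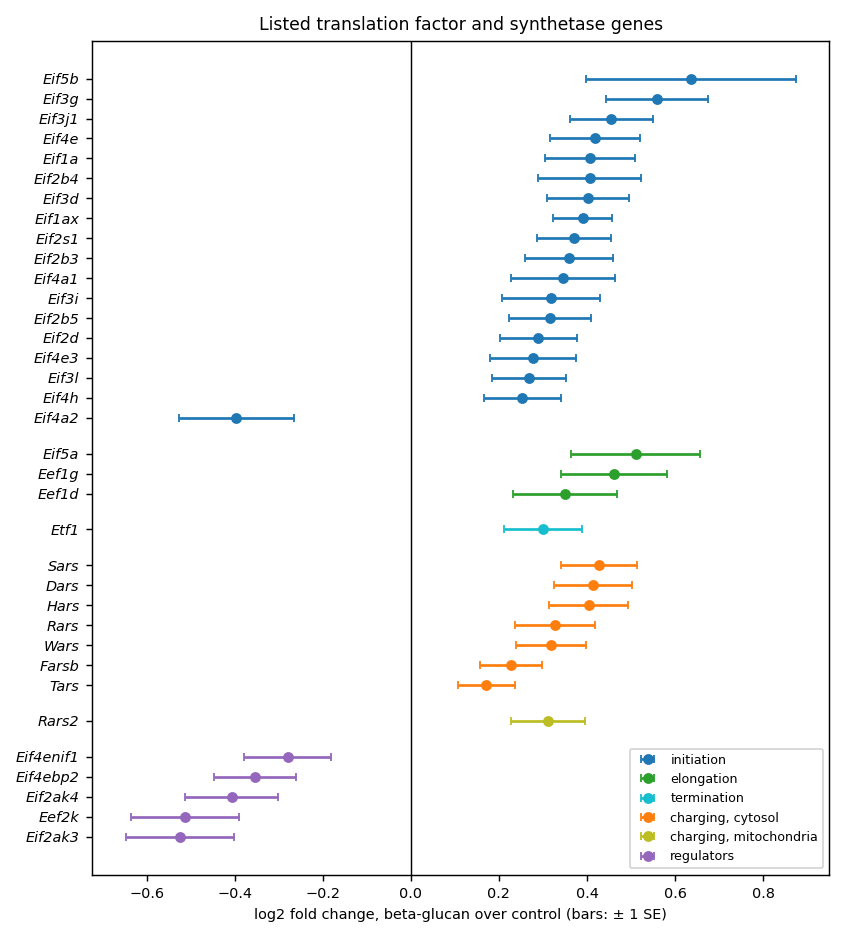
Log2 fold change of each of the 35 members (x axis, beta-glucan over control; point with 1 standard error, 8 libraries per group), in rows by role. Every initiation, elongation, termination and charging gene except Eif4a2 lies right of 0, and the 5 regulators lie left of 0.

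The groups did not overlap in normalized counts for 6 of the 35 members, all of them higher. Among all listed genes 2.67% were higher without overlap, 4.85% lower without overlap and 7.52% either. These were Eif1ax, Eif1a, Eif2s1, Eif2b5, Eif4e and Dars. In the edgeR quasi-likelihood fit, adjusted over 17130 genes, 22 members passed higher, where 25.9% of the 2738 listed genes fitted did, and 4 passed lower, where 42.8% did. Those that did not pass were Eif5b, Eif4a1, Eif3i, Eif4e3, Eif4h, Eef1d and Tars among the higher members, and Eif4a2 and Eif4enif1 among the lower. The members had been chosen by the same contrast, so the counts that passed add no support. With scaling computed from the listed genes, by TMM or by size factors, 29 members passed higher and 0 lower in edgeR. Of the lower members 2 then had an unadjusted p under 0.05. DESeq2 with the deposited factors passed 29 and 6. Over all listed genes fitted, TMM passed 1036 higher and 528 lower, the size factors 1056 and 510, and DESeq2 1056 and 1886. The count of 22 fell to 6, and that of 4 to 1, when controls 2 and 3 were left out together. The counts over all listed genes fitted fell too, from 709 to 184 higher and from 1173 to 445 lower. Leaving out 1 library moved the 22 by over 1.5 times in 6 cases. It was 12 without beta-glucan 8, 13 without control 3, and 14 without beta-glucan 7, control 2, control 5 or control 7. In those 6 fits from 381 to 446 of all listed genes fitted passed higher, against 709 with all libraries. The 29 positive and 6 negative signs were the same in each of the alternative fits run, including those without controls 12 and 13. Every member had been listed for a difference in these same libraries, so kept signs were favoured in advance and add no support.

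Of 108 annotated protein-coding genes with such symbols, counted in GENCODE M21 without Eif6, the 35 members were 32.4%. The share listed higher was 40.5% of 42 initiation genes, 33.3% of 9 elongation genes, 33.3% of 3 release factor genes and 35% of 20 cytosolic synthetases. It was 5.88% of 17 mitochondrial synthetases, of which Rars2 alone was listed, and none of 14 regulators. Of the regulators 35.7% were listed lower, against 2.38% of the initiation genes. Beside kinases and binding proteins, the 14 regulators count the methyltransferase genes Eef1akmt1, Eef1akmt2, Eef1akmt3, Eef1akmt4 and Eef2kmt, none of them listed. Annotated genes that were not expressed or not tested count in these shares, so they are not rates among tested genes, and the classes were not tested against each other.

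Class medians of the log2 fold change were 0.37 for initiation (18 members), 0.46 for elongation (3 members), 0.33 for cytosolic charging (7 members) and -0.41 for the regulators (5 members). All listed genes fitted had a median of -0.41. The ranges of the first 3 classes overlapped, from 0.25 to 0.64 for initiation without Eif4a2, 0.35 to 0.51 for elongation and 0.17 to 0.43 for charging. Without controls 12 and 13 the medians were 0.43, 0.64, 0.33 and -0.45 in the same order, and without controls 2 and 3 they were 0.31, 0.38, 0.29 and -0.41. The members listed lower had longer gene models (median 6198 bases) than those listed higher (median 3709 bases), as had all listed genes (medians 5173.5 and 3335 bases). With each library's trend on gene length removed, the class medians were 0.38, 0.45, 0.31 and -0.38.

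In the mean of log2 levels, centred over all 16 libraries, initiation ran from 0.0189 to 0.355 in the beta-glucan libraries and from -0.354 to -0.0458 in the controls. Cytosolic charging ran from 0.0578 to 0.278 with beta-glucan and from -0.291 to -0.0223 in the controls. Neither class overlapped between the groups, which the choice of the members favours. The regulators ran from -0.323 to -0.0817 with beta-glucan and from -0.165 to 0.448 in the controls. Control 12 was the lowest control there and lay inside the beta-glucan range, and the other controls lay above it, at 0.0554 or more. For elongation, control 12 at 0.416 was the highest of all 16 libraries and control 13 at 0.0627 lay inside the beta-glucan range of -0.0282 to 0.404, while the other controls lay at -0.30 or lower.

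**Figure D2:**
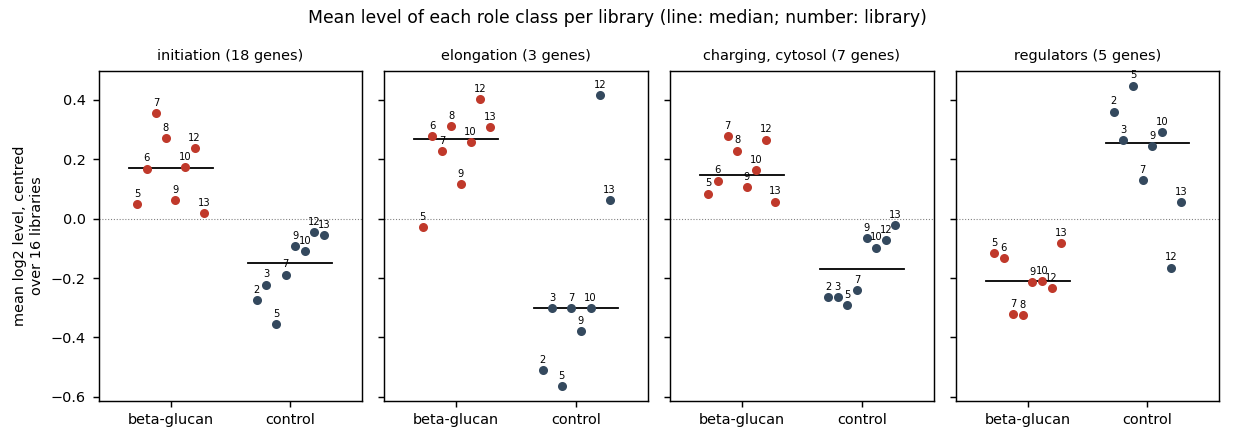
Mean log2 level of 4 role classes in each library, centred over 16 libraries (y axis), beta-glucan libraries left and controls right; numbers name the library and lines are medians. Initiation and charging do not overlap between the groups, while control 12 lies just above the beta-glucan libraries for elongation and among them for the regulators.

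The promoters of the members were searched for short motifs, and matching stretches are shown because they are the sequence feature several members share. RefSeq promoter windows on GRCm38.p6, 250 bases before to 50 after a start site, were at hand for 25 of the 35 members. The E-box CACGTG, the core site of Myc and related factors, was in a window of 7 of the 25 members (28%), of 11.7% of the other listed genes (13.6% of those listed higher) and of 8.91% of all protein-coding genes. The matches nearest the start are printed 5′ to 3′ on the gene's strand, with the E-box in capitals.

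Eif4a1 (chr11:69672595-69672624, minus strand): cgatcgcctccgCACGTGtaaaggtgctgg
Eif4e (chr3:138527192-138527221, plus strand): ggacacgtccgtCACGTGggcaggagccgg
Eif4h (chr5:134639488-134639517, minus strand): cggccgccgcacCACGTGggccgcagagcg
Eif5a (chr11:69921443-69921472, minus strand): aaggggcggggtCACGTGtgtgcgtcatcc
Farsb (chr1:78488919-78488948, minus strand): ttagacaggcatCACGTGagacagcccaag
Tars (chr15:11399622-11399651, minus strand): tccgcctgtggcCACGTGgcgcacgcgcag
Eef2k (chr7:120842788-120842817, plus strand): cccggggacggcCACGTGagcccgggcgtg

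The first 6 genes were higher with beta-glucan and Eef2k was lower. Windows were at hand for 19 higher and 6 lower members, and the E-box was in 31.6% and 16.7% of these. The ETS core CCGGAAG, on either strand, was in a window of 10 members (40%), of 18.7% of the other listed genes (22.8% of those listed higher) and of 12.9% of all protein-coding genes. These were 8 higher members (42.1% of the 19) and 2 lower members (33.3% of the 6), Eif4ebp2 and Eif4enif1. Examples, with the match or its reverse complement in capitals, came from genes of the scanning complex and from a synthetase.

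Eif3d (chr15:77970876-77970905, minus strand): gctgtgacacaCTTCCGGttgtgtctcact
Eif3g (chr9:20898616-20898645, minus strand): cggccgcggcaCCGGAAGcctcttctactc
Eif3l (chr15:79075177-79075206, plus strand): gctgggcgggaCTTCCGGtccggccaagca
Sars (chr3:108445251-108445280, minus strand): taacactgcggCTTCCGGcgagctaggcgc

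The amino acid response core TGATGNAA, through which ATF4 is known to induce synthetase genes, was in windows of Tars and Eef2k (8% of 25 members, 4.13% of all protein-coding genes). The palindrome TGACGTCA was in none of the 25 and in 2.54% of all protein-coding genes. No matches of different motifs overlapped in the members. Each motif was searched on both strands, and a match is a run of letters and not a shown binding site. Members had more windows per gene than all genes (1.48 against 1.22) and a higher share of G and C in them (62.7% against 53.8%, and 61.0% in the other listed higher genes). The part of these differences in the motif shares was not tested.

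Of 4 annotated genes of eIF2 only Eif2s1 was listed, and of 5 genes of its exchange factor eIF2B 3 were, all of them higher. The rest of both complexes are not analysed here. Eif2s1 (ENSMUSG00000021116, chromosome 12, 78861819 to 78887010, mm10) encodes eIF2 alpha, the subunit that stress kinases phosphorylate. It ran from 1560.3 to 1871 normalized counts (median 1707) in beta-glucan libraries, against 1083 to 1526 (median 1363) in controls, a log2 fold change of 0.37 ± 0.08 (SE). The groups did not overlap, and control 13 came nearest. Eif2b5, the catalytic subunit of eIF2B, ran from 1023 to 1642 (median 1151) with beta-glucan, against 889.7 to 1017 (median 980.8) in controls (0.32 ± 0.09), also without overlap, although beta-glucan 5 and control 9 were only a few counts apart. Its partner subunit genes Eif2b4 (0.41 ± 0.12) and Eif2b3 (0.36 ± 0.10) were higher too. Eif2b3 had the lowest level per length of all members, with a median of 2.16 FPKM with beta-glucan and 1.65 FPKM in controls. Eif2d, which can bring initiator tRNA to the ribosome without eIF2, had 0.29 ± 0.09.

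Both genes of the scanning factor eIF1A were higher without overlap. Eif1ax (ENSMUSG00000067194, chromosome X, 159372178 to 159389928, mm10) encodes eIF1A, which helps the small subunit scan for the start codon. It ran from 1119 to 1297 normalized counts (median 1205) with beta-glucan, against 847 to 1021 (median 899) in controls, at 0.39 ± 0.07. Eif1a, its close relative on an autosome, ran from 2093 to 2554 (median 2206) with beta-glucan, against 1286 to 1992 (median 1813) in controls, at 0.41 ± 0.10. Controls 7 and 9 were the nearest controls for Eif1a. Eif5b, the GTPase that joins the ribosomal subunits, had the largest fold change of all members and the widest spread, at 0.64 ± 0.24. Its beta-glucan libraries ran from 3762 in library 13 to 16232 in library 7 (median 9596), against 3952 to 9112 (median 6227) in controls, so beta-glucan 13 lay below every control. Of the exon bases of Eif5b 16.8% are shared with Rev1 on the other strand.

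Of 14 annotated genes of eIF3, the scaffold on which the initiation complex forms, 5 were listed, all higher, where 6.3% of all genes tested were listed higher. The other 9 are not analysed here. Eif3g (ENSMUSG00000070319, chromosome 9, 20894349 to 20898623, mm10), an RNA-binding subunit, ran from 1002 to 1635 normalized counts (median 1357) with beta-glucan, against 714 to 1251 (median 916) in controls, at 0.56 ± 0.12. Control 12 reached beta-glucan 5 and 6, control 13 reached beta-glucan 5 alone, and the other controls lay lower. Eif3j1, the gene of another subunit, ran from 967 to 1309 (median 1077) with beta-glucan. In controls it ran from 672 to 972 (median 795), and the fold change was 0.46 ± 0.09. The groups overlapped by beta-glucan 5 and control 9. Of the 50-base stretches of its longest transcript 39.4% also occur in Eif3j2, so the split of reads between these copies is uncertain. Eif3d (0.40 ± 0.09), Eif3i (0.32 ± 0.11) and Eif3l (0.27 ± 0.08) were the other subunits. Of the exon bases of Eif3d 43.3% are shared with the antisense gene Gm17638, which was listed lower (log2 fold change -2.30 in the authors' deposited table). The strand setting of the counting is not given in the sources used here, so reads of that pair cannot be told apart.

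The cap-binding group held the pair of members that moved in opposite directions. Eif4e (ENSMUSG00000028156, chromosome 3, 138526179 to 138559696, mm10), the cap-binding protein itself, ran from 1727 to 2013 normalized counts (median 1856) with beta-glucan, against 1038 to 1692 (median 1386) in controls, at 0.42 ± 0.10. No control reached a beta-glucan library. Eif4e3, a further cap-binding relative, had 0.28 ± 0.10. Of its exon bases 14.8% are shared with Gm20696 on the same strand, so its count is uncertain. Eif4h, which stimulates the helicase eIF4A, had 0.25 ± 0.09.

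Eif4a1 (ENSMUSG00000059796, chromosome 11, 69666936 to 69672423, mm10) encodes the main form of that helicase. It ran from 12725 to 19577 normalized counts (median 17305) with beta-glucan, against 9907 to 15798 (median 13629) in controls, at 0.35 ± 0.12. Beta-glucan 5 and 6 were the low libraries of their group and lay among the controls. Its paralog Eif4a2 (ENSMUSG00000022884, chromosome 16, 23107444 to 23114136, mm10) ran from 1976 to 3593 (median 2817) with beta-glucan, against 2477 to 4258 (median 3829) in controls, at -0.40 ± 0.13. Controls 9 and 10, at 2770.1 and 2477, lay among the beta-glucan libraries. Per length, the ratio of Eif4a1 to Eif4a2 was 4.50 to 10.9 (median 7.51) with beta-glucan, against 2.97 to 7.13 (median 4.27) in controls. All ratios given were chosen after the values were seen. Eif4a1 had been listed higher and Eif4a2 lower by the same contrast, so a higher ratio with beta-glucan was favoured in advance. Here 6 of 8 beta-glucan libraries lay above every control. Of the 50-base stretches of the longest Eif4a1 transcript 64.9% occur in the pseudogene Eif4a-ps4, so its count is uncertain.

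**Figure D3:**
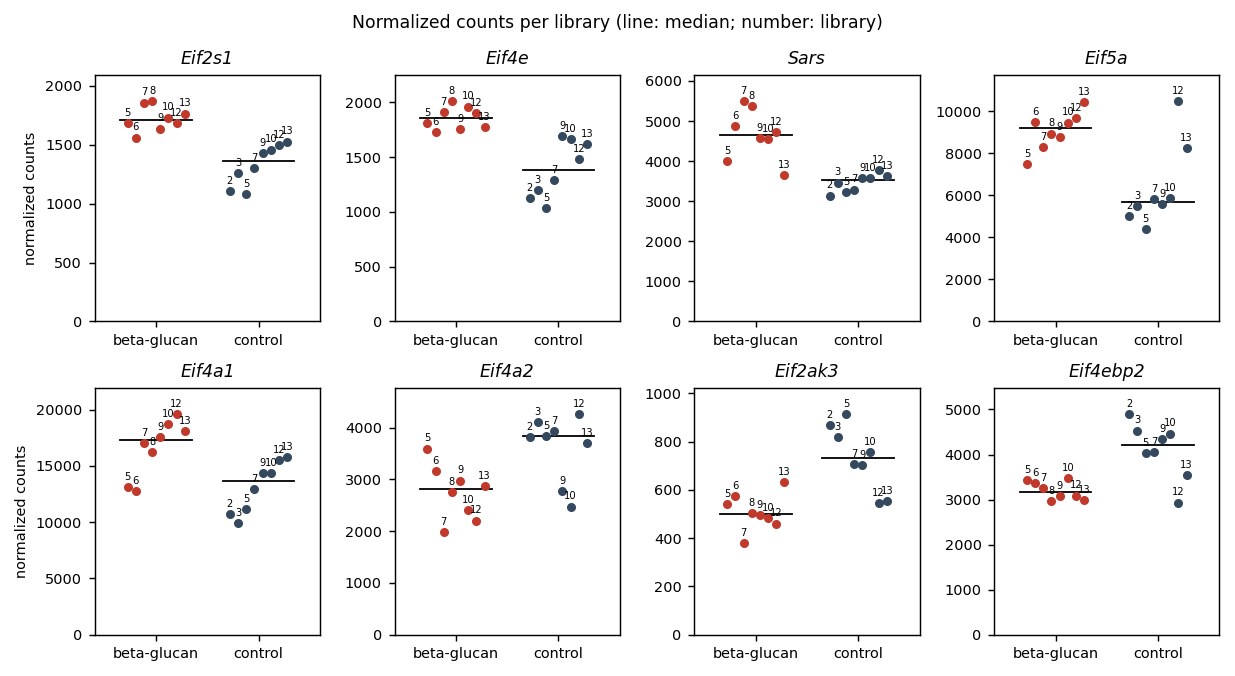
Normalized counts (y axis, from 0) of 8 members in each library, beta-glucan left and control right; numbers name the library and lines are medians. Eif2s1 and Eif4e do not overlap between groups, control 12 lies just above the highest beta-glucan library for Eif5a and just below the lowest for Eif4ebp2, and controls 9 and 10 lie among the beta-glucan libraries for Eif4a2.

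Of the members, the 3 of elongation had the largest upward shifts in fold change when control 12 was left out. Eif5a (ENSMUSG00000078812, chromosome 11, 69916714 to 69921958, mm10), a factor that keeps the ribosome moving through difficult stretches, ran from 7470.4 to 10431 normalized counts (median 9186) with beta-glucan. In controls it ran from 4375 to 10477 (median 5699.7), and the fold change was 0.51 ± 0.15. Controls 12 and 13 had 10477 and 8245, and the other 6 controls had at most 5877. Without controls 12 and 13 the fold change of Eif5a was 0.76.

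Eef1g and Eef1d, subunits of the complex that reloads eEF1A with GTP, also had their highest control in library 12. Eef1g (ENSMUSG00000071644, chromosome 19, 8967041 to 8978479, mm10) ran from 5980.2 to 7282 (median 6495) with beta-glucan, against 3479 to 7334 (median 4391) in controls, at 0.46 ± 0.12. Control 12 was the 7334 and exceeded every beta-glucan library. Eef1d ran from 1402 to 2189 (median 1889.8) with beta-glucan, against 1105 to 2053 (median 1339) in controls, at 0.35 ± 0.12. Of the 50-base stretches of the longest Eef1g transcript 64.3% occur in other annotated genes, most of them in Gm4366, so its count is uncertain. The release factor gene Etf1 (ENSMUSG00000024360, chromosome 18, 34902785 to 34932007, mm10), whose product recognises stop codons, ran from 2897 to 4501 (median 3643) with beta-glucan, against 2619.7 to 3491 (median 3005) in controls, at 0.30 ± 0.09. Its beta-glucan 13 lay inside the control range and the other 7 above it.

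Of the charging genes, 7 cytosolic synthetases and the mitochondrial Rars2 were listed, all higher. Sars (ENSMUSG00000068739, chromosome 3, 108424865 to 108445209, mm10), the seryl-tRNA synthetase, ran from 3649 to 5501 normalized counts (median 4646) with beta-glucan, against 3142 to 3778 (median 3521) in controls, at 0.43 ± 0.09. Only beta-glucan 13 lay inside the control range. Dars (ENSMUSG00000026356, chromosome 1, 128363707 to 128417368, mm10), the aspartyl-tRNA synthetase, ran from 1715 to 2013 (median 1807) with beta-glucan, against 1019 to 1673 (median 1383) in controls, at 0.41 ± 0.09, with no overlap. Hars, for histidine, ran from 1038 to 1486 (median 1178) with beta-glucan, against 806 to 1089 (median 890.1) in controls, at 0.40 ± 0.09. Control 12 lay above beta-glucan 5 and 9, and the other controls lay below every beta-glucan library.

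Rars, for arginine, ran from 1884 to 2675 (median 2314) with beta-glucan, against 1589 to 2170.1 (median 1717) in controls, at 0.33 ± 0.09. Controls 9, 10 and 13 lay inside the beta-glucan range. Its mitochondrial counterpart Rars2 was a low transcript, from 401 to 546 (median 443) with beta-glucan, against 336 to 419 (median 358) in controls, at 0.31 ± 0.08. Wars (tryptophan, 0.32 ± 0.08), Farsb (the beta subunit for phenylalanine, 0.23 ± 0.07) and Tars (threonine, 0.17 ± 0.06) had smaller differences, and Tars the smallest of all members. Its 8 beta-glucan libraries nevertheless all lay above the control median.

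The regulators restrain the steps above. Eif2ak3 (ENSMUSG00000031668, chromosome 6, 70844515 to 70905245, mm10), or PERK, phosphorylates eIF2 alpha when proteins misfold in the endoplasmic reticulum. It ran from 379.9 to 633 normalized counts (median 499) with beta-glucan, against 544 to 913 (median 731) in controls, at -0.52 ± 0.12. Controls 12 and 13, at 544 and 554, were the lowest controls and lay inside the beta-glucan range, and the next control had 702. Eif2ak4, or GCN2, which senses uncharged tRNA, ran from 442 to 614 (median 506) with beta-glucan, against 568.4 to 845 (median 651) in controls, at -0.41 ± 0.11. Beta-glucan 5 alone lay inside its control range.

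Eef2k (ENSMUSG00000035064, chromosome 7, 120842831 to 120907450, mm10) phosphorylates eEF2 and so slows elongation. It ran from 623 to 798 (median 689.7) with beta-glucan, against 639.8 to 1254 (median 980.2) in controls, at -0.51 ± 0.12. Controls 12 and 13, at 639.8 and 769.8, lay inside the beta-glucan range and the other 6 at 951 or above. Eif4ebp2, which holds eIF4E away from eIF4G until mTORC1 phosphorylates it, ran from 2973 to 3478 (median 3175) with beta-glucan, against 2933 to 4893 (median 4203) in controls, at -0.35 ± 0.09. Control 12 was the 2933. Eif4enif1, a shuttling protein that also binds eIF4E, had -0.28 ± 0.10. With scaling factors computed from the listed genes by TMM, which shifts the median gene by 0.19, the regulators had a median of -0.22, and none of the 5 passed in edgeR.

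A factor and its restraint were also set against each other within each library. The factors had been listed higher and the restraints lower by the same contrast, so a higher ratio with beta-glucan was favoured in advance and adds no support. The ratio of Eif4e to Eif4ebp2 in FPKM was 0.495 to 0.652 (median 0.558) with beta-glucan, against 0.222 to 0.487 (median 0.333) in controls. The groups did not overlap, and controls 12 and 13 were the highest controls at 0.487 and 0.442. The ratio of Eif2s1 to Eif2ak3 was 3.31 to 5.95 (median 4.18) with beta-glucan, against 1.44 to 3.35 (median 2.29) in controls. Here beta-glucan 6 lay below controls 12 and 13 and the other 7 lay above every control.

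Per length, members spanned a wide range. Eif4a1 (median 223 FPKM with beta-glucan and 175 FPKM in controls), Eif5a (215 and 134 FPKM) and Eef1g (139 and 94.2 FPKM) were the most abundant, and Eif4h followed at 70.5 and 55.7 FPKM. The cytosolic synthetases lay in the middle, from Sars at 50.4 and 38.2 FPKM to Tars at 14.0 and 12.6 FPKM, and the mitochondrial Rars2 lay lower at 8.92 and 7.197 FPKM. The regulators other than Eif4ebp2 lay near the bottom, with medians between 3.78 and 5.31 FPKM with beta-glucan and between 4.87 and 7.38 FPKM in controls. Neighbours in this order, such as Eif4a1 and Eif5a, overlapped between libraries, and genes that were not listed are not part of it.

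**Figure D4:**
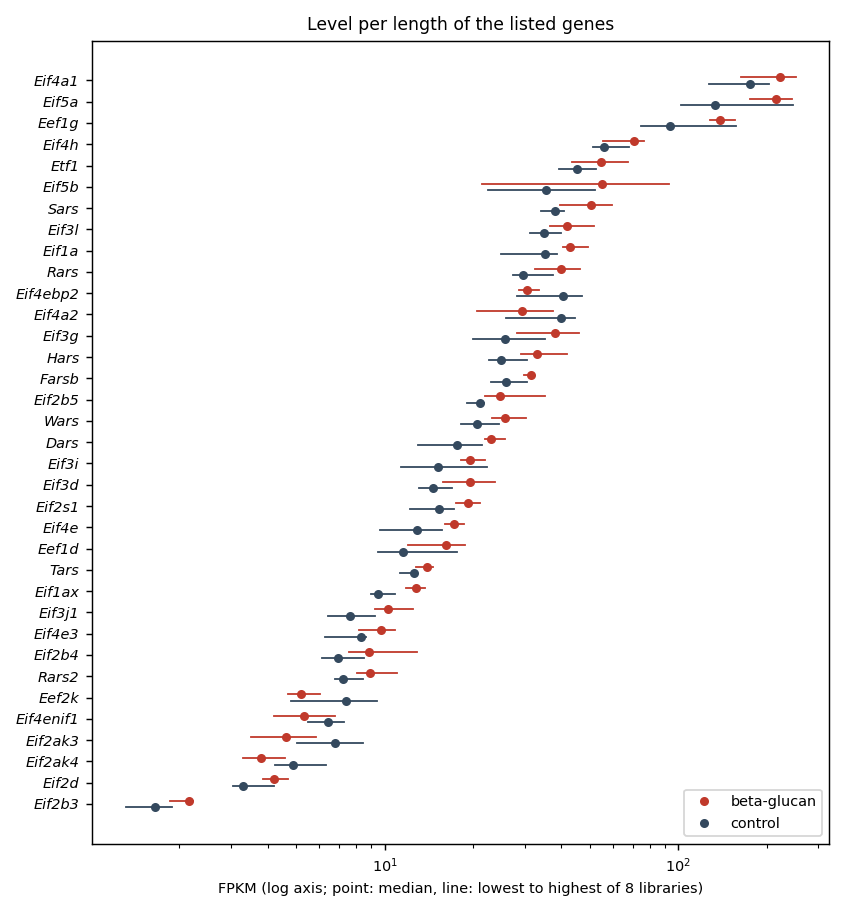
FPKM of each member (x axis, log scale; point median, line lowest to highest of 8 libraries), beta-glucan above control within each row, members ordered by mean FPKM. Eif4a1, Eif5a and Eef1g stand at the top, the cytosolic synthetases in the middle, and Rars2 and the kinases near the bottom.

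Neighbouring genes of the pathway came from lists written with earlier results of these data known. Of 11 mitochondrial translation factors 2 were listed higher, Tufm (authors' deposited log2 fold change 0.44) and Gfm1 (0.22), and 1 lower, Guf1 (-0.34). Of 11 synthetase scaffold and accessory genes 3 were listed, all higher. These were Aimp1 (0.37) and Aimp2 (0.41), which hold the multi-synthetase complex together, and Dtd1 (0.56), which clears tRNAs charged with D-amino acids. Of 19 genes of poly(A) binding, scanning and ribosome rescue 1 was higher, the rescue factor Pelo (0.60), and 3 were lower. The lower ones were Nemf (-0.37) and Zfp598 (-0.49), which act on stalled ribosomes, and Gcn1l1 (-0.43), the activator of GCN2.

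Of 26 genes of the integrated stress response and amino acid synthesis 3 were listed higher in the authors' deposited table and 1 lower. The higher ones were Trib3 (0.87), Slc7a11 (1.18) and Atf5 (0.29), and the lower one was Vldlr (-0.74). Atf4 itself and the synthesis genes Asns, Psat1 and Phgdh were not among the listed genes. Trib3 ran from 298 to 714 normalized counts with beta-glucan, against 163 to 378 in controls. Of 30 mTORC1 pathway genes 1 was higher, the GTPase gene Rraga (0.38), which recruits mTORC1 to the lysosome. The 4 lower ones were the mTOR inhibitor Deptor (-0.56), Depdc5 (-0.44), Flcn (-0.35) and the eIF4E kinase Mknk1 (-0.34). Of 10 Myc network genes only the repressor Mxd4 was listed, lower (-0.40). Beside 17.9% of all genes tested, listed in either direction, the listed shares were 27.3% for both of the first 2 lists. They were 21.1%, 15.4%, 16.7% and 10% for the next 4. The list shares count all annotated genes, including any not expressed or not tested, so they are not rates among tested genes.

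The authors' deposited enrichment tables, which drew on the listed genes, held related terms. Translation factor activity with RNA binding had 23 genes higher and 4 lower (adjusted p = 0.0266 in the authors' deposited table), and 22 of the 27 were members. Translation initiation factor activity had 17 higher and 1 lower (adjusted p = 0.0637), 17 of them members. The KEGG pathway of aminoacyl-tRNA biosynthesis had 8 genes higher and none lower, all 8 of them members, out of 44 in its background (adjusted p = 0.941). Broader terms were mixed in direction in the authors' deposited table. Translational initiation had 21 higher and 9 lower (adjusted p = 0.187), and translational elongation had 6 higher and 6 lower (adjusted p = 0.502).

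The listed markers of the labelled cell type had mean FPKM from 35.7 (Itgam) to 657 (Csf1r), and 4 of them were lower with beta-glucan. Of 8 macrophage markers 5 were listed. Adgre1, Csf1r, Itgam and Mertk were lower and Cd14 higher, and their summed normalized counts ran from 74529 to 84808 with beta-glucan, against 85337 to 158632 in controls. Csf1r had the highest counts of the 5, at 38483 to 48783 with beta-glucan and 46574 to 101276 in controls. Cd14 had 6739 to 9876 and 3545 to 7993 in the same order. Of 6 B cell markers Ighm and Cd79b were listed, both lower, with sums from 86.7 to 226 with beta-glucan, against 231 to 405 in controls. None of 9 neutrophil, 8 T and NK cell, 7 dendritic cell, 7 stromal or 9 erythroid and megakaryocyte markers was listed, and their levels are not analysed here. The part of these shifts in the differences of the members was not tested.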

How the data were processed

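Novogene built the libraries from RNA isolated on RNeasy columns, per the labels' protocols. Tools listed per the submitters' processing notes, with no role given, are STAR 2.5, CASAVA, DESeq2 and HTSeq 0.6.1, with the build mm10. The authors deposited whole-number read counts, normalized counts (a signal, the counts divided by 1 size factor per library, from 0.864 to 1.16) and FPKM, which are the normalized counts per kilobase scaled to 17937135 reads. In the deposited log2 fold change, positive means higher with beta-glucan. The deposited p-values come unadjusted and adjusted over 17130 genes. The deposited enrichment tables give gene numbers (other) and p-values per term.

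Counts were fitted with edgeR 4.0.16 (glmQLFit, glmQLFTest, filterByExpr) in R 4.3.3, with size factor times 17937135 reads, from 15492864 to 20738976, as library sizes, because factors computed from genes chosen for their differences would be distorted. Adjustment was by Benjamini-Hochberg over 17130 genes. Centred levels used log2 of normalized counts plus 0.5. DESeq2 1.42.0 was an alternative. The fit was tested on simulated data. Gene models and transcripts came from GENCODE M21, which held all 35 member IDs, 33 of them with the same start and end. Figures were made in Python 3.11.15 with matplotlib 3.10.9.

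Members, gene lists, motifs and roles were chosen with earlier results of these data known. Full values were given, by rule, for up to 4 members of each role with the most positive and the most negative fold changes and for the most abundant. Libraries of a group were treated as replicates.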

Additional observations from a re-analysis of the deposited data

Results flagged for a closer look

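In groups of 8 libraries a value was marked when its gap to the nearest other value exceeded 0.526 of the range, Dixon's limit. Of 92 groups tested 5 were marked, where chance marks about 1 in 20. Rars2 was marked in both groups, with 546 normalized counts in beta-glucan 8 (the next had 465.9) and 419 in control 7 (the next had 372). Eif4h had 6779 normalized counts in control 3, where the next control had 5834. The ratio of Eif2s1 to Eif2ak3 in FPKM was 5.95 in beta-glucan 7, where the next was 4.52. The ratio of Eif1ax to Eif1a in FPKM was 0.325 in beta-glucan 12, where the next was 0.299.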

How the results depend on the processing

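Without 1 library each, the count of members passing higher in edgeR ran from 12 to 25 around 22, and the count passing lower from 4 to 5 around 4. Over all listed genes fitted these counts ran from 381 to 871 around 709, and from 769 to 1405 around 1173. Class medians then ran from 0.34 to 0.40 for initiation, 0.41 to 0.58 for elongation, 0.30 to 0.37 for charging and -0.45 to -0.36 for the regulators. Without controls 2 and 3, 6 passed higher and 1 lower, where 184 and 445 of all 2748 listed genes fitted did. With TMM computed on the listed genes, 29 passed higher and 0 lower (edgeR, 2 lower at an unadjusted p under 0.05). The medians were then 0.54 for initiation, 0.51 for charging and -0.22 for the regulators. With size factors computed on the listed genes, 29 passed higher and 0 lower (2 at an unadjusted p under 0.05), with medians of 0.55, 0.52 and -0.21. Both scalings move all values up by construction, by a median of 0.19 and 0.20, since most listed genes were lower. DESeq2 with the deposited size factors passed 29 higher and 6 lower. Over all listed genes fitted, TMM passed 1036 higher and 528 lower, the size factors computed on them 1056 and 510, and DESeq2 1056 and 1886.

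The replicate number was used as a block over the 12 libraries whose number is in both groups. With this replicate block 1 member passed higher and 0 lower (edgeR; 23 and 5 at an unadjusted p under 0.05). The same 12 libraries without the block were an alternative chosen after seeing the data. They gave 0 higher and 0 lower (24 and 5 at an unadjusted p under 0.05). These 12 lack controls 2 and 3 and beta-glucan 6 and 8. The number of libraries and which were left out cannot be told apart. Over all listed genes fitted, 111 passed higher and 244 lower with the block, against 24 and 44 without it. The correlation of deviations between same-numbered libraries ran from -0.20 to 0.47 over 6 pairs. Whether the numbers pair the libraries was not tested. Only number 5 had its own control as the best match. No fit reversed a sign of a member, which the choice of the members favours. In the order by FPKM, the median in place of the mean kept 20 of 35 members in place.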

Other observations

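The ratio of Eif1ax to Eif1a in FPKM, looked at after its values were seen, had a median of 0.29 with beta-glucan and 0.289 in controls, and varied among controls. Controls 2, 3 and 5 had 0.377, 0.354 and 0.337, and the other 5 controls had 0.248 to 0.295, while the beta-glucan libraries had 0.278 to 0.325.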
